A study of Mus musculus with 2 samples.

Results

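The platelet-derived growth factor (PDGF) system was followed through 5 genes, the ligands *Pdgfa*, *Pdgfb* and *Pdgfd* and the receptors *Pdgfra* and *Pdgfrb*, taken by symbol from the 31053 genes of each count matrix. All 5 had transcripts in both libraries. The data were single-cell transcriptomes of mouse lung from 10x Chromium libraries. Transcripts were counted by their unique molecular identifiers (UMIs), molecular tags that keep copies of 1 molecule from being counted again. There was 1 library from mice in normoxia and 1 from mice kept at 10% inspired oxygen for 3 weeks, a standard way to raise pulmonary artery pressure in rodents. Both groups were C57/B6 mice of 2 to 4 months with no transgene given in the labels, and the study's methods name male animals. The study names 3 wild-type animals for the hypoxia experiment, and whether animals were pooled in a library is not given in the sources used here. Lung cells were depleted of CD45+ and CD326+ cells on beads before capture, so leukocytes and epithelial cells were fewer here than in the lung, and the shares of cells below describe the depleted suspension.

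PDGFs are dimeric growth factors that act on mesenchymal cells through the tyrosine kinase receptors PDGFRα and PDGFRβ. In the vessel wall, PDGF-B made by endothelial cells (ECs) binds PDGFRβ and recruits and keeps pericytes, the mural cells of capillaries. PDGF-A acts through PDGFRα and is known in the lung for its part in the formation of alveoli, while PDGF-D binds mainly PDGFRβ and is secreted as a latent protein that proteases such as urokinase activate. PDGF signalling through PDGFRβ is a known driver of smooth muscle growth in pulmonary hypertension.

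In the GENCODE annotation of GRCm38, the build given for the files, *Pdgfa* lies on chromosome 5 from 138976014 to 138997370 on the minus strand, *Pdgfb* on chromosome 15 from 79995874 to 80014977 on the minus strand, and *Pdgfd* on chromosome 9 from 6168584 to 6378850 on the plus strand. *Pdgfra* lies on chromosome 5 from 75152292 to 75198215 on the plus strand. *Pdgfd* spans 210267 bases with up to 7 exons per transcript, against 19104 bases and up to 7 exons for *Pdgfb*. The 250 bases before a RefSeq start are printed for 2 ligand genes. The promoter reference used here held no window for *Pdgfb*, so that ligand gene is not among them. Of those printed, *Pdgfa* was highest in type 1 pneumocytes and pericytes and *Pdgfd* in ECs in the values that follow. The sequences are from RefSeq on GRCm38.p6, written 5′ to 3′ on the strand of the gene, and capitals mark a match to ACGTG or GCGTG on either strand, the core letters of the motif that hypoxia-inducible factors bind.
Pdgfa, chr5:138994945-138995194, minus strand: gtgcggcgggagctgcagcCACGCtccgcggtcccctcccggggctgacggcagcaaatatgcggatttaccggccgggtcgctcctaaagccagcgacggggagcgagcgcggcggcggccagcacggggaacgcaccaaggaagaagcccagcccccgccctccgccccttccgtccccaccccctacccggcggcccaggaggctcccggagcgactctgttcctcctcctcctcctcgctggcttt
Pdgfd, chr9:6168236-6168485, plus strand: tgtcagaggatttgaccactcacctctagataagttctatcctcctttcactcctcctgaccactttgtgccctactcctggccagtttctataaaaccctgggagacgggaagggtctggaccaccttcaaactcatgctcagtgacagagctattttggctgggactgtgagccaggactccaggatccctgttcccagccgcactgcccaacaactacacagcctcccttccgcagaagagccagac

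The *Pdgfa* window was 72.4% G and C with 28 CpG dinucleotides and held 1 match, to GCGTG, seen on this strand as its reverse complement CACGC. The *Pdgfd* window was 53.6% G and C with 3 CpG dinucleotides and held none of these letters. Of 32851 windows of the same length, 38.6% held at least 1 match to either motif, and their median G and C content was 52.4%. A second *Pdgfa* window and the *Pdgfra* window held 0 matches.

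After cells outside 200 to 4000 detected genes or above 5% mitochondrial UMIs had been removed, there remained 1348 of 2223 normoxia cells with a median of 3453 UMIs and 689 of 809 hypoxia cells with a median of 2224. Each level pools the UMIs of a gene over all cells of a class and library and is scaled to 1000000 UMIs of those cells (CPM). Intervals are exact 95% intervals, Poisson for levels, conditional binomial for ratios and Clopper-Pearson for shares, and they cover counting error only. The exception is a ratio pooled over clusters, which is a Mantel-Haenszel ratio, a weighted combination over clusters, with a normal approximation for its 95% interval. With 1 library per condition no test was possible, and hypoxia cannot be told apart from any other difference between the libraries. Where 0 UMIs were found, the limit is the level that 3 UMIs would give, and for a share of cells it is 3 cells of the total, which limits cells with a UMI and not cells that express the gene. The 27 clusters were formed without the 5 genes and named from markers that do not include them, although the limits of the naming were set with PDGF levels in view. EC-like cells made up 845 of the normoxia cells (62.69%) and 580 of the hypoxia cells (84.18%), and all 10 EC markers were detected in both. The other classes used here were fibroblast-like (189 and 35 cells), pericyte-like (44 and 3), myofibroblast-like (16 and 0), type 1 pneumocyte (AT1)-like (45 and 12) and type 2 pneumocyte (AT2)-like (7 and 8). The myofibroblast-like cluster had 6 of 7 myofibroblast markers and 8 smooth muscle markers, each in at least 25% of its cells. By the same rule the pericyte-like cluster had 10 of 14 pericyte markers, 7 smooth muscle markers, 8 EC markers and 5 fibroblast markers. No class was named smooth-muscle-like. Of the 16 EC-like clusters, 7 held at least 10 cells of each library and 6 drew over 90% of their cells from 1 library, and 1 barcode occurred in both libraries, though not among kept cells.

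**Figure D1:**
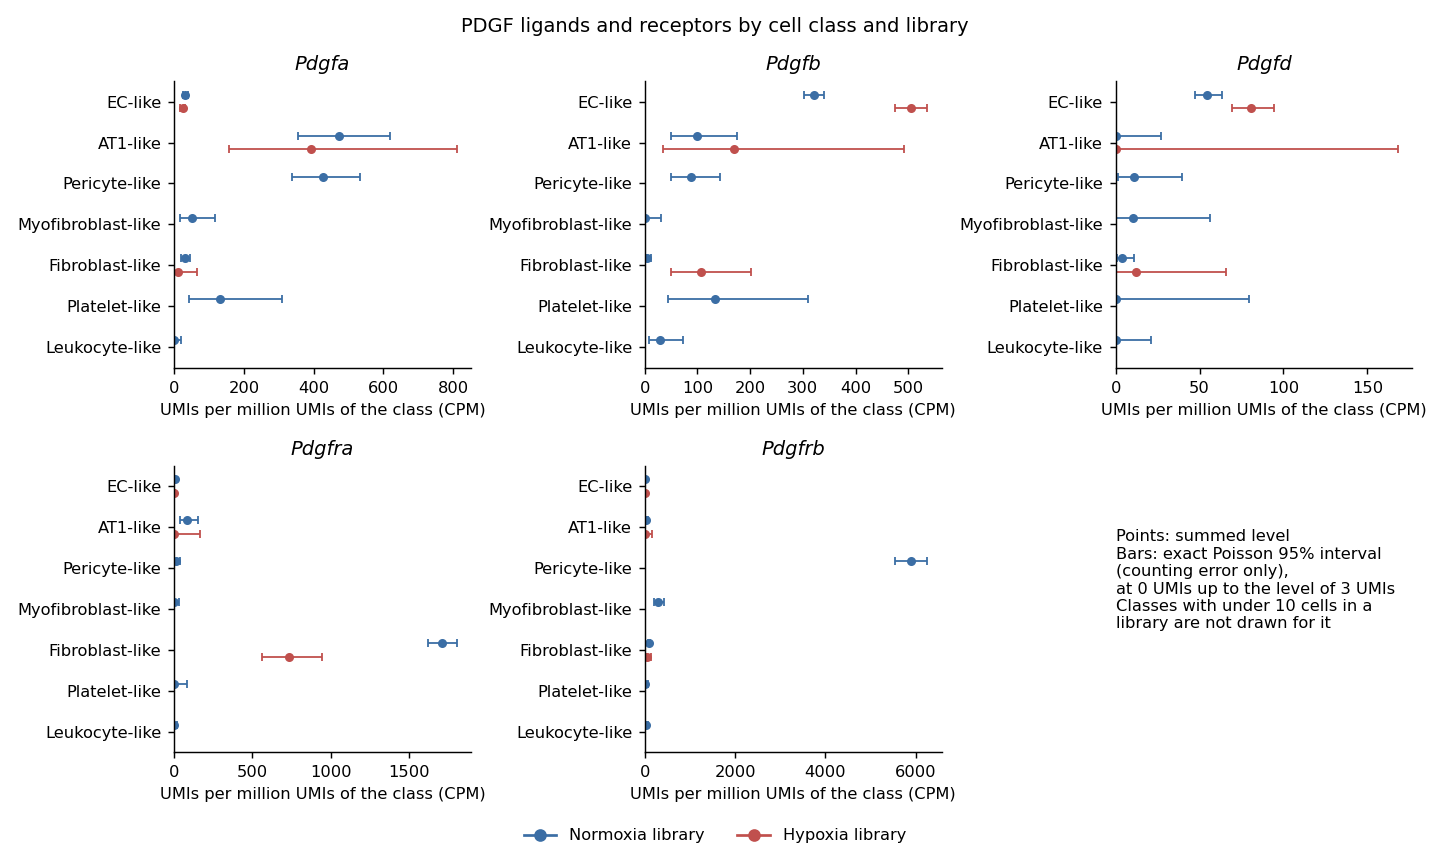
Level of each PDGF gene (x axis, CPM) in each cell class (y axis), for the normoxia library in blue and the hypoxia library in red, with exact Poisson 95% intervals as bars, or a bar up to the level of 3 UMIs where 0 were found, and with groups under 10 cells not drawn. *Pdgfb* and *Pdgfd* were highest in EC-like cells, *Pdgfa* in AT1-like and pericyte-like cells, *Pdgfra* in fibroblast-like cells and *Pdgfrb* in pericyte-like cells.

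4 of the 5 genes had most of their normoxia UMIs in 1 class. The shares follow the makeup of a suspension depleted of epithelial cells and leukocytes. EC-like cells held 92.88% of the 1180 *Pdgfb* UMIs of the normoxia library and 96.91% of the 1069 of the hypoxia library, while they held 66.11% and 89.41% of all UMIs. For *Pdgfd*, EC-like cells held 93.03% of 201 UMIs and 97.65% of 170. Fibroblast-like cells held 95.71% of 1469 *Pdgfra* UMIs in normoxia and 95.38% of 65 in hypoxia, from 14.02% and 5.08% of the cells. Pericyte-like cells held 87.34% of 1232 *Pdgfrb* UMIs in normoxia from 3.26% of the cells. The *Pdgfa* UMIs were spread more widely, with 37.67% in EC-like, 26.71% in pericyte-like and 18.15% in AT1-like cells in normoxia.

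**Figure D2:**
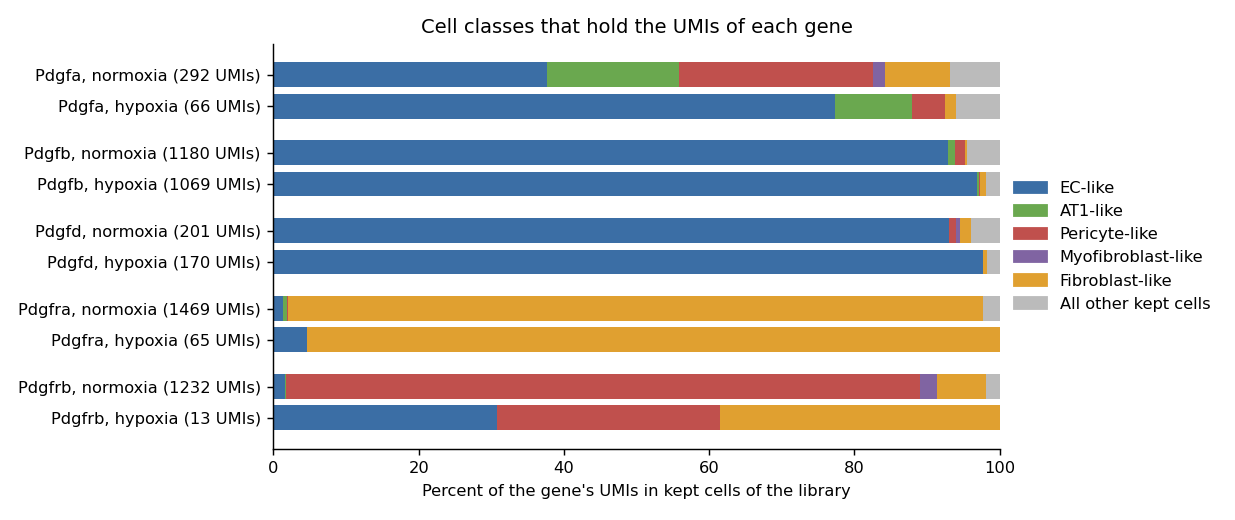
Share of the UMIs of each gene (x axis, percent of its UMIs in the kept cells of 1 library) that lay in each cell class, with the number of UMIs beside each bar. The ligand *Pdgfb* and the receptor *Pdgfrb* had their largest shares in normoxia in different classes, 92.88% in EC-like and 87.34% in pericyte-like cells, and the hypoxia bar of *Pdgfrb* rests on 13 UMIs.

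*Pdgfb* was the most abundant of the ligands by UMIs in EC-like cells and was higher in the hypoxia library. Its level in EC-like cells was 320.5 CPM (interval 301.8 to 340) in normoxia and 504.9 CPM (474.6 to 536.6) in hypoxia, from 1096 and 1036 UMIs. The hypoxia/normoxia ratio was 1.58 (1.45 to 1.72). In the 7 EC-like clusters where both libraries had 10 cells or more, pooling gave a ratio of 1.61 (1.42 to 1.83). Levels in normoxia and hypoxia were 177 and 795.5 CPM in cluster 3 and 507.7 and 804.2 CPM in cluster 10. They were 281.7 and 432.6 CPM in cluster 11 and 378.4 and 470.2 CPM in cluster 12. They were 198.3 and 214.8 CPM in cluster 13, 115.1 and 157.9 CPM in cluster 15, and 387.6 and 217.8 CPM in cluster 19. Whether these clusters share 1 ratio was not tested. The share of EC-like cells with a *Pdgfb* UMI was 55.86% of 845 in normoxia and 55.17% of 580 in hypoxia, at median depths of 3777 and 2678 UMIs. After each cell was thinned to 1000 UMIs, the share was 24.49% of 788 cells in normoxia and 35.05% of 465 in hypoxia. As a background, 3 of 189 normoxia fibroblast-like cells (1.59%, median depth 3411), 2 of 19 normoxia leukocyte-like cells (10.5%, median depth 4685) and 0 of 15 AT2-like cells of both libraries had a *Pdgfb* UMI, the latter allowing a share of up to 20% at a median depth of 1866. Among normoxia pericyte-like cells, where EC markers were at 31.79% of the EC level, 9 of 44 had one at a median depth of 3920.

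Of the genes with at least 50 UMIs in EC-like cells, 7.87% were higher by at least 1.5-fold in the hypoxia library and 9.58% were lower by at least that much. Of the 3 PDGF genes with that many UMIs there, *Pdgfb* was past the fold and higher, *Pdgfd* at 1.48 (1.19 to 1.83) lay just under it and *Pdgfa* at 0.77 (0.54 to 1.09) had an interval that spanned 1. The median log2 ratio over all 8656 genes was 0.03. By size of the ratio *Pdgfb* stood at rank 525 and *Pdgfd* at rank 740 of these genes, counted from the highest.

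EC-like cells were divided into aerocyte-like cells (the capillary cells specialised for gas exchange), general-capillary-like, arterial-like, venous-like and lymphatic-like cells, and *Pdgfb* differed between them in both libraries. In normoxia the level was 501.1 CPM in aerocyte-like cells (450.2 to 556.2, 122 cells), 308 CPM in general-capillary-like cells (285.2 to 332.2, 592 cells), 177 CPM in arterial-like cells (109.6 to 270.5, 21 cells), 115.1 CPM in venous-like cells (80.18 to 160.1, 53 cells) and 47.82 CPM from 2 UMIs in 11 lymphatic-like cells. Aerocyte-like cells were above general-capillary-like cells by 1.63-fold (1.43 to 1.85), and arterial-like cells were at 0.57 of the general-capillary level (0.35 to 0.89). Arterial-like and venous-like cells could not be separated, with a ratio of 1.54 (0.85 to 2.72), nor could lymphatic-like and venous-like cells at 0.42 (0.05 to 1.62).

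In the hypoxia library the order changed at the arterial end. Arterial-like cells had 795.5 CPM (617.8 to 1009, 17 cells), aerocyte-like cells 756.5 CPM (666.6 to 855, 61 cells), general-capillary-like cells 485.8 CPM (448.6 to 525.2, 300 cells) and venous-like cells 157.9 CPM (86.33 to 265, 20 cells). Aerocyte-like cells stood at 0.95 of the arterial-like level (0.73 to 1.26), so these neighbours did not differ beyond counting error, while arterial-like cells were above general-capillary-like cells by 1.64-fold (1.26 to 2.11) and above venous-like cells by 5.04-fold (2.81 to 9.70). Without the hypoxia cell with most *Pdgfb*, the arterial-like level was 654 CPM, and its ratio to the other subtypes was not computed. In 3 lymphatic-like hypoxia cells there were 0 *Pdgfb* UMIs, which allows up to 588.5 CPM and so sets no useful limit.

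**Figure D3:**
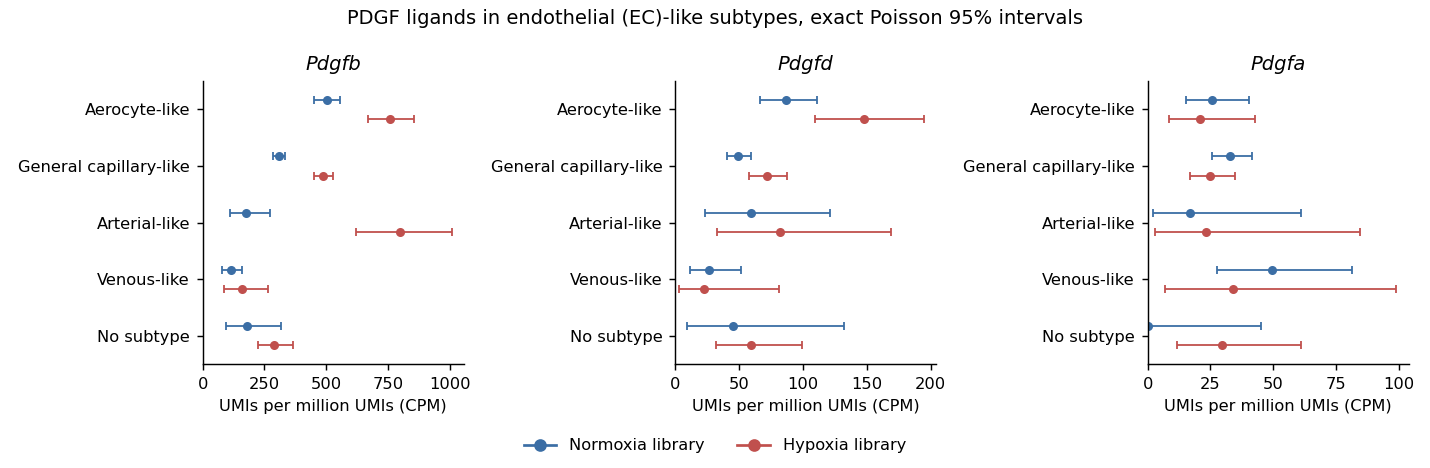
Level of the ligand genes (x axis, CPM) in EC-like subtypes (y axis) in the normoxia library in blue and the hypoxia library in red, with exact Poisson 95% intervals, or a bar up to the level of 3 UMIs where 0 were found, and with groups under 10 cells not drawn. For *Pdgfb*, the arterial-like point moved from 177 CPM, between the venous-like and general-capillary-like points, to 795.5 CPM, beside the aerocyte-like point.

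The hypoxia/normoxia ratio of *Pdgfb* was 1.51 (1.28 to 1.78) in aerocyte-like, 1.58 (1.41 to 1.76) in general-capillary-like, 4.50 (2.72 to 7.72) in arterial-like and 1.37 (0.68 to 2.62) in venous-like cells. At the limits used here, the interval in arterial-like cells overlapped that of neither capillary subtype. With up to 10% mitochondrial UMIs the arterial-like ratio was 3.11 (1.66 to 5.79), from 29 normoxia and 10 hypoxia cells. That interval overlapped both capillary intervals, whose upper limits were 1.799 (aerocyte-like) and 1.855 (general-capillary-like). At resolution 3 (2.08 to 6.41) and with assignment of single cells by markers (1.99 to 2.87) the arterial-like interval overlapped neither. The difference between subtypes was not tested, since there is 1 library per condition. Of all genes with at least 50 UMIs in arterial-like cells, 18.8% were higher by at least 1.5-fold and 15.1% lower, against 8.62% and 10.6% in aerocyte-like and 10.4% and 9.1% in general-capillary-like cells. *Pdgfb* stood at rank 16 of 682 genes in arterial-like cells. It was past the fold and higher in these 3 subtypes, joined by *Pdgfd* in aerocyte-like cells, and no PDGF gene was past it in the lower direction. The aerocyte-like value came mainly from 1 of 2 clusters. Cluster 10 had 507.7 CPM in 93 normoxia and 804.2 CPM in 38 hypoxia cells, while the shallower cluster 19 had 387.6 CPM (216.9 to 639.3) in 29 normoxia and 217.8 CPM (79.94 to 474.1) in 23 hypoxia cells, from 15 and 6 UMIs. Both capillary ratios lay close to the fold. Without the hypoxia cell with most *Pdgfb* the aerocyte-like ratio was 1.40 (1.18 to 1.66), and with assignment of single cells by markers the ratios were 1.36 (1.16 to 1.58) in aerocyte-like and 1.47 (1.26 to 1.71) in general-capillary-like cells.

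The arterial-like value rested on 38 cells of 1 cluster led by *Atp13a3*, *Fbln2*, *Sulf1*, *Mecom* and *Bmx*, and on 21 normoxia and 68 hypoxia UMIs. *Pdgfb* was found in 12 of 21 normoxia cells and in 16 of 17 hypoxia cells, at median depths of 4862 and 4241 UMIs. Per cell, the median was 108.2 CPM in normoxia with an upper quartile of 426.1 and a highest cell of 635.3 CPM, and 714.3 CPM in hypoxia with a lower quartile of 471.6 and a highest cell of 2175 CPM. The lower quartile in hypoxia thus lay above the upper quartile in normoxia. The hypoxia cell with most *Pdgfb* held 20 of the 68 UMIs (29.41%), and without it the level was 654 CPM and the ratio 3.70 (2.17 to 6.50). When cells were assigned by their own marker UMIs in place of clusters, which called many more cells arterial-like (340), the ratio was 2.39 (1.99 to 2.87).

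In general-capillary-like cells most clusters belonged to 1 library. The 4 clusters that were over 90% normoxia had 308 CPM in their 407 normoxia cells and 568 CPM (380.4 to 815.7) in their 18 hypoxia cells. The cluster that was over 90% hypoxia had 488.3 CPM (445.7 to 534) in its 183 hypoxia cells. The 3 mixed clusters had 302.4 CPM (258.8 to 351.2) in 183 normoxia cells and 460 CPM (381.4 to 550) in 99 hypoxia cells, so the hypoxia level was the higher in the mixed clusters as well. In the cells without a subtype, *Pdgfb* was at 180.8 CPM in 46 normoxia cells and 286.5 CPM in 179 hypoxia cells. Among these, 1 cluster of 36 normoxia and 82 hypoxia cells scored just under the aerocyte limit, and with it added the aerocyte-like ratio was 1.28 (1.09 to 1.5).

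*Pdgfb* outside the EC-like cells rested on few UMIs per class, and EC transcripts were present beside it at differing levels. In platelet-like cells it was at 132.9 CPM in normoxia and 377.8 CPM in hypoxia from 5 and 2 UMIs, with EC markers at 53.17% and 27.56% of the EC level. In the unnamed clusters it was at 146 and 283.4 CPM from 44 and 17 UMIs, with EC markers at 68.47% and 66.48%. Some of these levels were as high as that of venous-like cells. In leukocyte-like cells *Pdgfb* was at 8.88% and 23.42% of the normoxia EC-like level, from 4 and 1 UMIs. EC markers there were at only 4.89% and 1.56% of the EC level. *Pdgfb* was at 87.68 CPM in normoxia pericyte-like cells, where the summed level of the 10 EC markers was 31.79% of that in EC-like cells, and at 98.21 and 168.4 CPM in AT1-like cells, where EC markers were at 26.24% and 23.01%. In fibroblast-like cells it was 4.86 CPM from 4 UMIs in normoxia and 106.7 CPM from 9 UMIs in hypoxia. The 9 UMIs lay in 4 cells of a fibroblast-like cluster with few UMIs per cell (cluster 8), none of which had a *Pdgfra* UMI. These cells had 6, 48, 7 and 7 EC marker UMIs beside 10, 19, 6 and 2 fibroblast marker UMIs. The summed EC markers in that cluster were at 14.66% of the EC level in normoxia and 24.78% in hypoxia, and their part in the fibroblast-like value was not tested.

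*Pdgfd* was likewise higher in aerocyte-like than in general-capillary-like cells, at a lower level. In EC-like cells it was at 54.68 CPM (47.12 to 63.10) in normoxia and 80.90 CPM (69.06 to 94.19) in hypoxia, from 187 and 166 UMIs, and within the 7 shared clusters the pooled ratio was 1.57 (1.15 to 2.14). In aerocyte-like cells it was at 86.59 CPM in normoxia against 147.7 CPM in hypoxia, a ratio of 1.71 (1.15 to 2.52). In aerocyte-like cluster 19 there were 2 and 0 *Pdgfd* UMIs, so the aerocyte-like value came from cluster 10. In general-capillary-like cells it was at 49.43 and 71.71 CPM, a ratio of 1.45 (1.09 to 1.93). In the mixed clusters of that subtype it was at 33.6 CPM (20.23 to 52.47) in normoxia and 46 CPM (23.77 to 80.35) in hypoxia, and these intervals overlapped. Normoxia cells of clusters 4 and 5 had 77 and 71.35 CPM, while those of clusters 1 and 11 had 32.08 and 38.52 CPM. The cluster that was over 90% hypoxia had 79.19 CPM (62.6 to 98.83) in its hypoxia cells. Aerocyte-like cells were above general-capillary-like cells by 1.75-fold (1.26 to 2.42) in normoxia and 2.06-fold (1.43 to 2.94) in hypoxia. Arterial-like cells had 7 UMIs in each library (58.99 and 81.89 CPM) and venous-like cells had 8 and 2 UMIs (26.31 and 22.56 CPM). The arterial/general-capillary ratio of 1.19 (0.47 to 2.54) in normoxia and 1.14 (0.45 to 2.45) in hypoxia did not separate these subtypes. No *Pdgfd* UMI was found in AT1-like, AT2-like, platelet-like or leukocyte-like cells, where 3 UMIs would give from 21.34 CPM in normoxia leukocyte-like to 566.7 CPM in hypoxia platelet-like cells. That limit lay below the EC-like level of the same library in AT2-like cells of both libraries and in normoxia AT1-like and leukocyte-like cells, and above it in the others. A UMI of both *Pdgfb* and *Pdgfd* occurred in 109 normoxia and 85 hypoxia EC-like cells, which is 23.09% and 26.56% of those with *Pdgfb*, against 11.53% and 7.31% of those without it. The cells with *Pdgfb* were deeper, with medians of 4354 and 4260 UMIs against 2928 and 1352.

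*Pdgfa* had its highest levels outside the endothelium. In normoxia it was at 473.2 CPM (354.5 to 619) in AT1-like cells, the thin epithelial cells that line the alveolus, and at 427.5 CPM (337.9 to 533.5) in pericyte-like cells. It was at 132.9 CPM from 5 UMIs in platelet-like, 69.29 CPM in AT2-like, 50.64 CPM in myofibroblast-like, 32.16 CPM in EC-like and 31.6 CPM in fibroblast-like cells, with 0 UMIs in 19 leukocyte-like cells (up to 21.34 CPM). AT1-like cells stood at 14.7 times the EC-like level (10.4 to 20.6) and pericyte-like cells at 13.3 times (9.81 to 17.9), and the ratio between these classes was 1.11 (0.77 to 1.59). The AT1-like value came from 53 UMIs in 13 of 45 cells, 18 of them in 1 cell, without which the level was 349.1 CPM. The pericyte-like value came from 78 UMIs in 28 of 44 cells, and 25 of these 28 cells (89.29%) also held a *Pdgfrb* UMI, against 75% of those without *Pdgfa*, which were shallower (median depth 1423 against 5004). The summed AT1 markers in the pericyte-like cells were at 1.85% of their level in AT1-like cells. Of the 12 markers, 7 had UMIs there, and *Rtkn2*, *Aqp5*, *Spock2*, *Pdpn* and *Krt7* were at 0. The part of AT1 transcripts in the pericyte-like *Pdgfa* value was not tested.

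In the hypoxia library *Pdgfa* was at 393 CPM (158 to 809.7) in 12 AT1-like cells from 7 UMIs, a ratio of 0.83 to normoxia (0.32 to 1.83) that became 1.13 (0.42 to 2.57) without the normoxia cell with most *Pdgfa*, and at 24.86 CPM in EC-like cells. The AT1-like level was 15.8 times the EC-like level (6.05 to 35.0) there. Only 3 pericyte-like hypoxia cells were kept, and 3 *Pdgfa* UMIs were found in 1 of them. EC-like cells then held 77.27% of 66 *Pdgfa* UMIs and AT1-like cells 10.61%. Among the EC subtypes of the normoxia library *Pdgfa* ran from 16.86 CPM (2 UMIs) in arterial-like to 49.34 CPM (15 UMIs) in venous-like and 71.72 CPM (3 UMIs) in lymphatic-like cells. The venous/general-capillary ratio was 1.5 (0.80 to 2.64), so these did not differ beyond counting error.

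*Pdgfrb* lies on chromosome 18 from 61045150 to 61085061 on the plus strand and encodes the receptor for PDGF-B and PDGF-D. It was at 5897 CPM (5550 to 6260) in normoxia pericyte-like cells, where all 14 pericyte markers had at least 1 UMI in the pooled cells. It was found in 37 of 44 cells, with a median of 17 UMIs per cell and at most 72. The level was 20.1 times that of myofibroblast-like cells (13.9 to 30.1), 58.5 times that of fibroblast-like cells (46.7 to 74.0) and 1061 times that of EC-like cells (676.4 to 1770). Myofibroblast-like cells had 293.7 CPM with a UMI in 14 of 16 cells. Fibroblast-like cells had 100.9 CPM, and EC-like cells had 5.56 CPM with a UMI in 1.66% of cells at a median depth of 3777, which serves as background. In the hypoxia library the 3 pericyte-like cells had 512, 639 and 3985 UMIs in all, and the 4 *Pdgfrb* UMIs (778.8 CPM, 212.2 to 1994) were in the deepest of them. A change of level with hypoxia in pericytes was therefore not measurable in the kept cells. Allowing up to 10% mitochondrial UMIs gave 56 normoxia and 11 hypoxia pericyte-like cells, for which no hypoxia/normoxia ratio of *Pdgfrb* was computed. Over all kept cells, *Pdgfrb* had 1232 UMIs in normoxia and 13 in hypoxia, and the cells that the filters removed held 673 and 27 more. Removal by the filters, the loss of cells from the class and a lower level per cell cannot be told apart at this number of cells.

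*Pdgfra*, the receptor for PDGF-A among others, was at 1709 CPM (1621 to 1801) in normoxia fibroblast-like cells and at 734.7 CPM (563.3 to 941.9) in hypoxia, from 1406 UMIs in 127 of 189 cells and 62 UMIs in 11 of 35 cells. After thinning to 1000 UMIs, 60.58% of 137 and 40% of 25 cells had a UMI, against 0.51% and 0.22% of EC-like cells. In normoxia the fibroblast-like level was 155.9 times that of pericyte-like cells (43.1 to 1289), in which 2 UMIs lay in 1 cell, and 25.4 times (15.6 to 44.5) when cells with up to 6000 genes were kept. It was at least 56.3-fold higher than in myofibroblast-like cells, which had 0 UMIs, taken against the level of 3 UMIs over that class, and the exact lower limit of that ratio was 45.7. AT1-like cells had 9 UMIs in 4 normoxia cells (80.36 CPM), where fibroblast markers were at 8.30% of the fibroblast level, and 0 UMIs in hypoxia (up to 168.4 CPM).

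**Figure D4:**
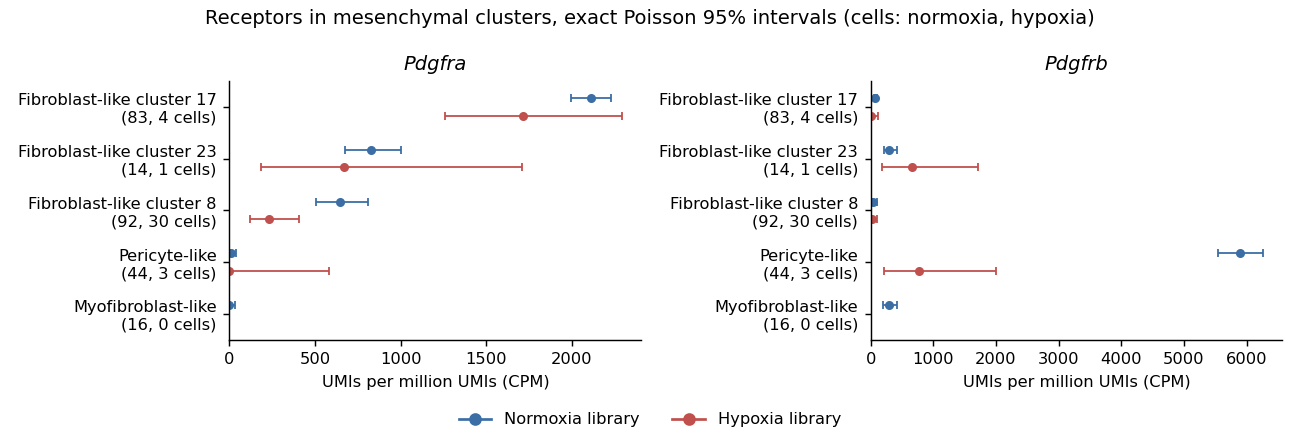
Level of both receptors (x axis, CPM) in the fibroblast-like clusters and in pericyte-like and myofibroblast-like cells (y axis, with the number of normoxia and hypoxia cells), with exact Poisson 95% intervals, or a bar up to the level of 3 UMIs where 0 were found. *Pdgfra* was at 2109 CPM in normoxia cells of cluster 17 and 643.5 CPM in those of cluster 8, and *Pdgfrb* at 5897 CPM in pericyte-like cells.

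The hypoxia/normoxia ratio of *Pdgfra* in fibroblast-like cells was 0.43 (0.33 to 0.55) and lay below 1 in each of the 3 clusters, and differences between clusters were not tested. Cluster 17, led by *Pdgfra* itself, *Npnt*, *Itga8* and *G0s2*, had 2109 CPM in 83 normoxia cells and 1717 CPM in 4 hypoxia cells, a ratio of 0.81 (0.59 to 1.09). Cluster 23, led by *Dcn*, *C4b*, *C3* and *Clec3b*, had 826.6 CPM in 14 cells and 666.7 CPM in 1 cell, a ratio of 0.81 (0.22 to 2.13). The shallow cluster 8 had 643.5 CPM in 92 cells and 232.6 CPM in 30 cells, a ratio of 0.36 (0.18 to 0.67), and made up 48.68% of the normoxia but 85.71% of the hypoxia fibroblast-like cells. Its summed fibroblast markers were at 71.18% of the normoxia fibroblast-like level in normoxia cells and 48.49% in hypoxia cells. Its EC markers were at 14.66% and 24.78% of the EC level. The part of this makeup in the *Pdgfra* ratio was not tested. Without cluster 8 the ratio was 0.81 (0.60 to 1.07), when cells with up to 6000 genes were kept it was 0.74 (0.63 to 0.87), and without the hypoxia cell that held 24 of the 62 UMIs it was 0.29 (0.20 to 0.40). Of all genes with at least 50 UMIs in fibroblast-like cells, 31.6% were lower by at least 1.5-fold in hypoxia and 17.5% were higher. Both receptors were past the fold in the lower direction, with *Pdgfrb* at 100.9 and 59.25 CPM and a ratio of 0.59 (0.19 to 1.43) that spanned 1 and rested on 5 hypoxia UMIs. Without cluster 8 the *Pdgfrb* ratio was 1.10 (0.29 to 2.94), so its direction turned, while without the 1 hypoxia cell that held 4 of the 5 UMIs it was 0.13 (0.0032 to 0.72).

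The receptors were also read cell by cell, where a UMI can be missed at these depths. Among normoxia pericyte-like cells, 37 had *Pdgfrb* alone, 1 had *Pdgfra* alone and 0 had both, which allows a share of up to 6.82%. Of 16 myofibroblast-like cells, whose cluster also carried smooth muscle markers, 14 had *Pdgfrb* alone and none had *Pdgfra*. Whether smooth muscle cells were among them was not tested. Of 189 normoxia fibroblast-like cells, 86 had *Pdgfra* alone, 41 had both, 1 had *Pdgfrb* alone and 61 had neither. *Pdgfrb* in fibroblast-like cells was highest in cluster 23, with 299.9 CPM, against 70.36 CPM in cluster 17 and 42.9 CPM in cluster 8.

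**Figure D5:**
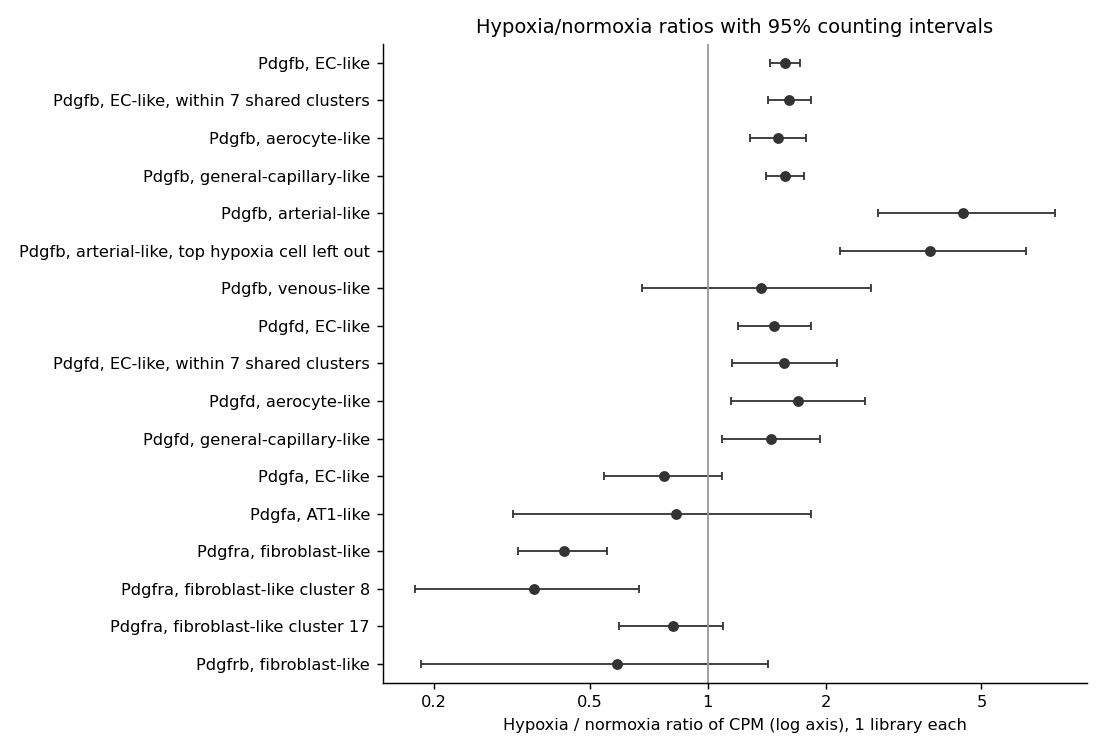
Hypoxia/normoxia ratio of CPM (x axis, log scale) for the PDGF genes in the classes and clusters named on the y axis, with 95% intervals that cover counting error only. The intervals are exact conditional binomial, except for ratios pooled within shared clusters, which use a normal approximation. The ligand ratios of *Pdgfb* and *Pdgfd* in both capillary subtypes lay between 1.45 and 1.71 with intervals above 1, the arterial-like ratio of *Pdgfb* was 4.50, and that of *Pdgfra* was 0.36 in fibroblast-like cluster 8 and 0.81 in cluster 17.

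A list of 35 genes that process, bind, transduce or attenuate PDGF signals was read in the same way. In EC-like cells 28 had enough UMIs, of which 1 was higher and 4 were lower by at least 1.5-fold, beside 7.87% and 9.58% of all genes there, with a median log2 ratio of -0.17 against 0.03 for all genes. The higher one was *Sparc*, a matrix protein that binds PDGF-B, at 445.9 CPM (normoxia) and 1291 CPM (hypoxia), with a ratio of 2.90 (2.72 to 3.09). Its ratio was 5.01 (3.53 to 7.27) in arterial-like, 2.38 (1.80 to 3.16) in aerocyte-like and 2.64 (2.46 to 2.84) in general-capillary-like cells. The lower ones included *Socs3*, a feedback inhibitor of cytokine signals, at 954 and 260.7 CPM, and the immediate-early genes *Fos* at 1523 and 350.4 CPM and *Egr1* at 2523 and 435.2 CPM, with ratios of 0.27, 0.23 and 0.17. In those 7 EC-like clusters where both libraries had 10 cells or more, these ratios were 0.58, 0.46 and 0.47. *Fos* and *Egr1* are also induced when tissue is dissociated. *Socs3* was among the leading genes, beside *Ier3* and *Atf3*, of clusters 1 (140 normoxia and 2 hypoxia cells) and 11 (110 and 22 cells). The part of handling in the ratios of *Socs3*, *Fos* and *Egr1* was not tested. In fibroblast-like cells 19 had enough UMIs, 2 were higher and 9 lower, beside 17.5% and 31.6% of all genes there, with a median of -0.41 against -0.11 for all genes, and the intervals of *Socs3*, *Fos* and *Egr1* lay wholly past the fold.

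4 further genes of the list were named by symbol, with earlier results of these data known. *Plau*, which encodes urokinase, had 26 of its 32 normoxia and 25 of its 27 hypoxia EC-like UMIs in aerocyte-like cells (36.91 and 73.87 CPM), with a ratio of 2.00 (1.11 to 3.61), while the 592 and 300 general-capillary-like cells had 0, with 3 UMIs corresponding to 1.37 and 2.31 CPM. *Nrp1*, a co-receptor for several growth factors, was at 2613 and 2633 CPM in aerocyte-like and 721.8 and 543.6 CPM in general-capillary-like cells. *Furin*, a protease that cleaves the precursors of PDGF-A and PDGF-B, was at 71.34 and 85.77 CPM in EC-like cells, with a ratio of 1.20 (0.98 to 1.47). The remaining ligand gene *Pdgfc* had 6 UMIs in normoxia myofibroblast-like cells (60.77 CPM) and 0 in EC-like, pericyte-like, fibroblast-like and AT1-like cells of both libraries. In hypoxia, 3 UMIs would give 584.1 CPM in pericyte-like and 168.4 CPM in AT1-like cells. Both lie above 60.77 CPM, so these zeros set no useful limit.

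The genes whose levels followed each PDGF gene most closely were ranked by Pearson's r of log2(CPM + 10) over 13 groups of class and library, among 8044 genes. The groups share libraries and cells of related kinds, so the values are a description. For *Pdgfb* these were *Ly6c1* (r = 0.98), *Tspan18*, *Hpcal1*, *Ly6a* and *Slc9a3r2*, and for *Pdgfd* *Rnf115* (0.96), *Pip5k1c*, *Tmod2*, *Kctd12* and *Pmaip1*. For *Pdgfa* they were *Cystm1* (0.90), *Lztfl1*, *Retreg1*, *Zfp467* and *Smarcc1*, of which 0 remained among the first 5 when the added value was 1 CPM. For *Pdgfra* they were *Scn3a* (0.99), *Prkg2*, *Neo1*, *Efemp1* and *Dpep1*. For *Pdgfrb* they were *Arhgap42* (0.98), *Nkain4*, *Gucy1a1*, *Arhgef17* and *Aspn*, of which 4 remained, and 3, 3 and 2 remained for *Pdgfb*, *Pdgfd* and *Pdgfra*.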

How the data were processed

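The authors made the count matrices with Cell Ranger (version 6.1.2 per the file headers) on mm10, and the deposited matrices give whole-number UMI counts, not normalized, for barcodes that their cell caller had kept (lowest totals 501 and 503 UMIs). The normoxia matrix held 2223 cells with 7630683 UMIs and the hypoxia matrix 809 cells with 2685345 UMIs. Cells with over 5% mitochondrial UMIs (835 and 107), over 4000 genes (46 and 13) or under 200 genes (16 and 0) were removed. No doublet caller was run, and doublets were limited by the maximum of genes only. A cluster with EC and fibroblast markers (25 normoxia and 3 hypoxia cells) stayed unnamed because no fibroblast marker was among its 10 leading genes. A further unnamed cluster held 140 and 40 cells.

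For clustering, each cell was scaled to 10000 and put on a log scale, and 2000 variable genes, without the 5 PDGF genes, entered Leiden clustering (30 principal components, 15 neighbours, resolution 2) in scanpy 1.11.5 with igraph 0.11.9, numpy 2.4.6, scipy 1.17.1 and pandas 2.3.3. Figures were drawn with matplotlib 3.10.9. Clusters were named from marker lists by mean marker scores. The limits of that naming (1.5 for a class, 0.7 for an EC subtype with a lead of 0.3, and 70% for EC markers) were set after cluster scores and PDGF levels had been seen. Names were rebuilt from markers and may not match the study's clusters. The limits left 3 EC-like clusters without a subtype, among them 1 of 8 normoxia and 93 hypoxia cells led by *Gm26870*, *Cdk19* and *Ntrk2* with MHC class II genes after them. The PDGF genes and all lists were chosen with earlier results of these data known, and so were the rules for naming genes, which were the 5 PDGF genes, pathway genes with at least 50 UMIs and an interval past 1.5-fold, *Pdgfc*, *Plau*, *Nrp1* and *Furin*, and the 5 genes most like each PDGF gene.

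Levels, ratios and intervals were computed from summed raw counts as described above, and shares of cells were also computed after thinning. The code of the ratio intervals was run on simulated counts drawn from independent Poisson distributions, the model those intervals assume. That run checks the code and cannot show how single cells with many UMIs affect the intervals. The pooled intervals were not part of it. Gene positions are from GENCODE and promoter windows from RefSeq. The alternatives changed the filters, the resolution, the scaling and the assignment of cells. Those that left out a single cell or the shallow fibroblast-like cluster, added a cluster to a subtype, or clustered each library alone were chosen after seeing the data.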

Additional observations from a re-analysis of the deposited data

Results flagged for a closer look

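The cells that the filters removed (875 normoxia and 120 hypoxia cells, mostly over the mitochondrial limit) also held PDGF transcripts, and 3 genes had a higher level there in the hypoxia than in the normoxia library. *Pdgfb* was at 100.5 CPM in removed normoxia cells and 366.3 CPM in removed hypoxia cells, a ratio of 3.64 (2.95 to 4.50). *Pdgfd* was at 14.24 and 53.79 CPM, a ratio of 3.78 (2.09 to 6.67). *Pdgfra* was at 149.8 and 297.1 CPM, a ratio of 1.98 (1.60 to 2.45), with all 116 hypoxia UMIs in 7 cells, where in the kept fibroblast-like cells it was lower in hypoxia. The removed cells were given no class, so these levels follow the makeup of the removed cells as well as the level per cell, and both cannot be told apart here. *Pdgfrb* was at 273.9 and 69.16 CPM in the same cells, a ratio of 0.25 (0.17 to 0.37). *Pdgfa* was at 82.61 and 51.23 CPM there, a ratio of 0.62 (0.37 to 0.98). Only genes with an interval above 1 were flagged, so these lower ratios were not.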

How the results depend on the processing

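No paired analysis was possible because normoxia and hypoxia had a single library apiece. Of 137 alternative values of 19 ratios, 126 stayed within the counting interval of the reported value and 11 moved. Alternatives in which a class did not form gave no value and are not among the 137. Leaving out clusters mostly of 1 library removed no arterial-like or aerocyte-like cells. The hypoxia/normoxia ratios of these subtypes therefore could not move there and count among the 126. The *Pdgfd* arterial-like over capillary-like ratio, whose interval spans 1, fell on both sides of 1, from 0.77 to 1.25 in normoxia and from 0.79 to 1.63 in hypoxia, and none of the ratios with an interval clear of 1 crossed it. Outside these, 2 ratios whose intervals span 1 turned direction, *Pdgfa* in AT1-like cells without 1 normoxia cell and *Pdgfrb* in fibroblast-like cells without the shallow cluster. The *Pdgfb* ratio in EC-like cells ran from 1.39, as the mean over cells, to 1.69. The *Pdgfra* ratio in fibroblast-like cells ran from 0.29 to 0.81, at 0.32 with median-ratio scaling, 0.29 without the top hypoxia cell, 0.81 without the shallow cluster, 0.74 with up to 6000 genes and 0.69 with assignment of single cells by markers. With up to 6000 genes, *Pdgfra* in fibroblast-like over pericyte-like cells was 25.4, and at resolution 1 *Pdgfrb* in pericyte-like over fibroblast-like cells was 74.0. The *Pdgfb* ratio was 1.40 (0.98 to 1.93) in general-capillary-like cells when each library was clustered alone, with 27 hypoxia cells in that subtype. No arterial-like cluster formed at resolution 1, with up to 6000 genes or with each library clustered alone, no AT1-like cluster was named when each library was clustered alone, and the pericyte-like class fell out when clusters mostly of 1 library were left out.

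Counts of genes past the fold depend on the minimum of UMIs and the fold. At a fold of 2, 172 of 8656 genes (1.99%) were higher and 304 (3.51%) lower in EC-like cells, with 0 of 3 PDGF genes tested higher. In fibroblast-like cells 179 of 3169 genes (5.65%) were higher and 593 (18.7%) lower, with 1 of 2 PDGF genes tested lower. At a minimum of 20 UMIs, 1278 of 10384 genes (12.3%) were lower in EC-like cells. Both receptors were among them, 2 of 5 PDGF genes tested. They rest there on 19 normoxia UMIs each and on 3 (*Pdgfra*) and 4 (*Pdgfrb*) hypoxia UMIs. In fibroblast-like cells 1207 of 6336 genes (19%) were higher and 2304 (36.4%) lower, with 3 of 3 PDGF genes tested lower. At a minimum of 100 UMIs, 518 of 6844 genes (7.57%) were lower in EC-like cells, with 0 of 3 PDGF genes tested among them. In fibroblast-like cells 280 of 1500 genes (18.7%) were higher and 400 (26.7%) lower, the latter with the 1 PDGF gene tested. Shares of cells rose with the number of UMIs kept in thinning, from 10.8% and 19.7% of EC-like cells with *Pdgfb* at 500 UMIs to 41.4% and 53.8% at 2000. All kept hypoxia cells held 13 *Pdgfrb* and 65 *Pdgfra* UMIs. The receptor levels there rest on 4 of these *Pdgfrb* UMIs in 3 pericyte-like cells and 62 of these *Pdgfra* UMIs in 35 fibroblast-like cells.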
